A study of Homo sapiens with 5 samples.

Results

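The genes of the integrin subunits, the laminin chains and SPP1 were examined in PC9 cells that had been made tolerant to gefitinib. The members were the rows of the authors' deposited table whose symbol names an integrin alpha or beta subunit, a laminin alpha, beta or gamma chain, or SPP1. This gave 34 of 27477 genes, of which 16 were integrin alpha subunits, 8 were integrin beta subunits, 9 were laminin chains and 1 was SPP1. ITGA4, ITGAL, LAMA1, LAMB4 and LAMC3 were not analysed here. PC9 is an established human lung adenocarcinoma cell line that depends on mutant EGFR, and gefitinib inhibits the EGFR kinase. RNA-seq libraries were made from drug-tolerant cells (DTC), given 50 nM gefitinib for 6 days and then plain growth medium for 3 days, and from parental PC9 cells. There were 2 DTC libraries and 3 parental libraries, all from this 1 cell line. The protocol text is the same on all 5 samples, so how the parental cells were kept on those days is not given. Nothing in the labels ties the replicates to separate cultures, so a p-value covers the spread among these 5 libraries alone, and that spread may be technical.

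Integrins are cell surface receptors made of 1 alpha and 1 beta subunit, and the pairing sets the ligand. Pairs that contain ITGA3 or ITGA6 bind laminins, pairs with ITGA1 or ITGA2 bind collagens, and ITGA5 and ITGAV pairs recognise the arginine-glycine-aspartate (RGD) motif of fibronectin, vitronectin, latent TGF-beta and osteopontin. Laminins are trimers of an alpha, a beta and a gamma chain that build the basement membrane under epithelia. SPP1 encodes osteopontin, a secreted RGD protein that binds ITGAV pairs and CD44. In lung epithelium these receptors and ligands hold cells to their basement membrane and pass adhesion signals to kinases that also act below EGFR.

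The deposited table holds the mean level, log2 fold change and standard error of each gene, but no column per library. Whole reads per library were recovered for 33 of the 34 members, all except ITGA6. For 22 of them the 1 set of reads was found that returns all 3 deposited values. For the 11 members with a mean level under 10, the 1 set that returns the deposited mean alone was taken. Recovered reads are given as normalised reads, that is reads divided by the library's size factor. Depth was about 14.2 to 21.4 M counted reads. The recovered libraries are called DTC a and b and parental a, b and c, and these letters are not the replicate numbers of the labels. The same was done for 589 genes drawn at random from tested genes with a mean level under 2500, which serve as a background. The parental libraries did not lie together. Over the drawn genes the median absolute log2 difference was 0.12 between the DTC libraries, 0.22 and 0.24 between parental a and DTC a and b, 0.11 between parental b and c, 0.61 between parental a and b, and 0.63 between parental a and c. Parental b and c differed by more than counting error, with a chi-square per degree of freedom of 2.35 over 572 genes, against 1.80 between the DTC libraries over 584 genes, and were counted as separate libraries. The differences of the members from reads are therefore also given against parental a alone and against parental b and c alone.

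SPP1 rose in DTC and was the 1 member called in the authors' deposited table at an adjusted p under 0.05 (DESeq2). Of the 23 members with an adjusted p, 1 was called higher, where the authors' deposited table called 0.263% of 15223 tested genes higher. By DESeq2, 0 members were called lower, against 0.289% of tested genes. In that direction 0 members had an unadjusted p under 0.05 by DESeq2, against 7.10% of tested genes. Of protein-coding genes with a transcript of 4 kb or longer, 2.48% had one. The 6 members with an unadjusted p under 0.05 in the authors' deposited table, SPP1 among them, all had positive log2 fold changes. These 6 make 26.1% of the tested members, and 3.70% of all tested genes, or 7.02% of protein-coding genes with a transcript of 4 kb or longer, had such a p with a positive value. In bulk RNA, fewer cells of a type and less RNA per cell cannot be told apart, which holds for all differences given here.

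In 10 of the 22 members that have both an adjusted p and reads, both DTC libraries lay above every parental library. That is 45.5% of these members, against 18.0% of the drawn genes and 25.3% of the 182 drawn genes with a transcript of 4 kb or longer. The median transcript length was 5618 nucleotides over the tested members and 2819 over all tested genes. SPP1, ITGA2, ITGA5, ITGB4, ITGB6, ITGB8, LAMA3, LAMA4 and LAMB3 were among the 10 members above. In 0 members did both DTC libraries lie below every parental library. That compares with 15.4% of the drawn genes and 9.89% of those with a transcript of 4 kb or longer. Against parental b and c alone DTC lay above in 19 of 22, with 41.1% of all drawn genes and 69.2% of the long ones. DTC lay below them in 1, ITGAE, with 41.9% of the drawn genes and 33 of the 182 long ones. Against parental a alone DTC lay above in 11 of 22, with 43.1% of the drawn genes, and below in 8, with 37.4%. These are 50.0% and 36.4% of the members, against 33.0% and 49.5% of the drawn genes with a transcript of 4 kb or longer. Parental a lay nearer to the DTC mean than to the mean of parental b and c in 18 of the 22 members, or 81.8%, and in 77.8% of the drawn genes. The share was 85.2% for drawn genes with a transcript of 4 kb or longer. For drawn genes with a mean level of 500 or more it was 83.0%.

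**Figure D1:**
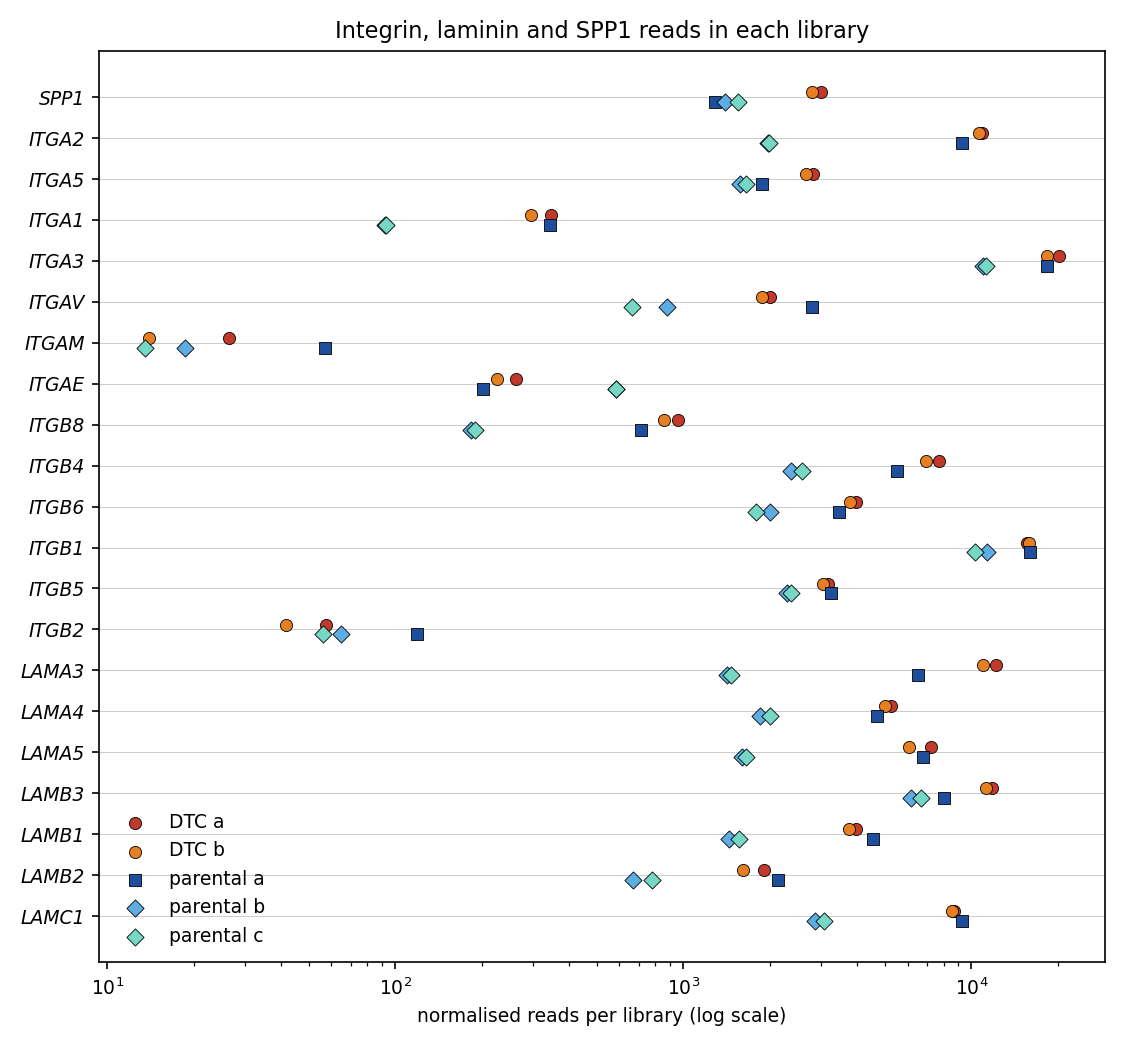
Normalised reads (log scale) of 21 members with an adjusted p and recovered reads, in 2 DTC libraries (circles) and 3 parental libraries (square for parental a, diamonds for b and c). In most rows parental a lies beside the DTC circles, in SPP1, ITGA5 and LAMB3 the parental libraries lie nearer to each other than to DTC, and in LAMA3 parental a lies between DTC and the other parental libraries.

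SPP1 was measured at 3012 and 2798 normalised reads in the DTC libraries, against 1293, 1400.5 and 1552 in parental a, b and c. The groups did not overlap, and parental a was the lowest library of all. The means were 2905 ± 152 in DTC and 1415 ± 130.3 in parental cells (SD over 2 and 3 libraries), a ratio of 2.05. The ratio was 2.25 against parental a and 1.97 against the mean of parental b and c, so the difference was of like size with either kind of parental library. In the authors' deposited table SPP1 had a log2 fold change of 0.96 ± 0.22 (SE; 95% interval 0.53 to 1.39) and an adjusted p of 0.0064 (DESeq2). The call was lost, at an adjusted p of 0.97, when the authors' deposited Wald scores were centred and scaled by their robust SD. The lowest DTC library stood 1.80 times above the highest parental library, a gap that 2 of the 589 drawn genes, or 0.340%, reached. SPP1 has a short transcript of 1581 nucleotides. Among the 183 drawn genes within 1.5 times that length, 7.65% had both DTC libraries above every parental library. The same share, each among drawn genes of similar length, was 26.3% for ITGA5, 9 of 45 genes for LAMA3, 25.4% for LAMB3 and 25.3% for ITGB4.

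SPP1 lies on chromosome 4 at 87975650 to 87983426 (GRCh38, GENCODE 29; ENSG00000118785). On the same build ITGA5 (ENSG00000161638) lies on chromosome 12 at 54395261 to 54419460, LAMA3 (ENSG00000053747) on chromosome 18 at 23689443 to 23956222 and LAMB3 (ENSG00000196878) on chromosome 1 at 209614870 to 209652466. RefSeq promoter windows (GRCh38.p14) were found for 25 of the 34 members, in 32 windows, and were read here from 250 bases before a transcription start to 20 after it. The windows of SPP1 and of the 3 members next to it by adjusted p, ITGA5, LAMA3 and LAMB3, are printed to show the sequence at the start of the genes with the lowest adjusted p. Of the 3 LAMB3 windows the 1 with a motif is shown. Capitals mark matches, on either strand, to AACCACA, a core letter string of RUNX factors, in SPP1, and to TGANTCA, the letters bound by the FOS and JUN dimers of AP-1, in the others. Both strings were chosen after the sequences had been read.
SPP1, chr4:87975464-87975733, plus strand: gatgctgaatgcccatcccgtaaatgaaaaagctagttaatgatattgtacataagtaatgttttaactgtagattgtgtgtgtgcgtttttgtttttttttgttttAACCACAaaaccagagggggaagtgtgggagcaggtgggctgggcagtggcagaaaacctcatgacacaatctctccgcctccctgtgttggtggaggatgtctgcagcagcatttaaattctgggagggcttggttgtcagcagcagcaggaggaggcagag
ITGA5, chr12:54419247-54419516, minus strand: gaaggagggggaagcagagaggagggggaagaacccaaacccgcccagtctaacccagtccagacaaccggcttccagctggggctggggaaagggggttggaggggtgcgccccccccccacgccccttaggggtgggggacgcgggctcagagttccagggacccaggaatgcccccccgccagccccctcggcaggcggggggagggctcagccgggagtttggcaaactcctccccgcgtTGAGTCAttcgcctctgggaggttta
LAMA3, chr18:23872770-23873039, plus strand: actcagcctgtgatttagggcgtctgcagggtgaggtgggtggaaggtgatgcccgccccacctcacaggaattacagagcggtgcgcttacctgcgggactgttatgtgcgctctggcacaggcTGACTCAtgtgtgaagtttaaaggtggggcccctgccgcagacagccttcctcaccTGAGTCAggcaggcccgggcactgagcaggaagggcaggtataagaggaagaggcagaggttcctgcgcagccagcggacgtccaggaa
LAMB3, chr1:209651355-209651624, minus strand: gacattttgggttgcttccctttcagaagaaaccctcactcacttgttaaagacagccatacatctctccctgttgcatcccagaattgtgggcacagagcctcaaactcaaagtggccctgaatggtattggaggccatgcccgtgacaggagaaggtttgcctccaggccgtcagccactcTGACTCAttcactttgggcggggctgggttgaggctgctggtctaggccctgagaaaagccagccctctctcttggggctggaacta
TGANTCA occurred in 3 of the 25 members with a window, which are ITGA5, LAMA3 and LAMB3, and in 8.70% of all 27305 genes with a window. By window it occurred in 3 of the 32 of the members and in 7.12% of all 35116, each of the same length. In LAMA3 it occurred at 2 places, from positions -125 and -69 relative to the start, in LAMB3 from -67 and in ITGA5 from -6. AACCACA occurred in SPP1, from position -143, and in ITGA6, which are 2 of the 25 members, and in 4.81% of all genes with a window. The matches are descriptions of letters and not measured sites. The start used for ITGA5 lies 194 bases inside the transcript annotated in GENCODE, so its match falls within that transcript. The LAMA3 window lies within the annotated gene, 25 bases from the start of a GENCODE transcript of 5007 nucleotides and 183577 bases from that of the 10661-nucleotide transcript used for lengths here.

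The RGD-binding subunits did not share 1 pattern over the libraries. ITGA5, the alpha subunit of the main fibronectin receptor, had 2815 and 2657 normalised reads in DTC, against 1871, 1575 and 1652 in parental a, b and c. Both DTC libraries lay above all 3 parental libraries, which lay together. The ratio of means was 1.61, with 1.46 against parental a and 1.70 against parental b and c. Its log2 fold change in the authors' deposited table was 0.63 ± 0.22 with an adjusted p of 0.21 (DESeq2), so ITGA5 was not called. ITGAV, the alpha partner of ITGB5, ITGB6 and ITGB8 and a receptor subunit for osteopontin, showed no such separation. It had 1997 and 1877 normalised reads in DTC, against 2800.4 in parental a, 878 in parental b and 663 in parental c. The DTC libraries thus lay between the parental ones, with a ratio of 0.692 against parental a and 2.51 against parental b and c. The authors' deposited table gave ITGAV a log2 fold change of 0.27 ± 0.39 and an adjusted p of 0.74 (DESeq2).

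Of the beta partners of ITGAV, ITGB8 and ITGB6 are activators of latent TGF-beta and ITGB5 is a vitronectin receptor subunit. ITGB8 had 961 and 856 normalised reads in DTC, against 710.2 in parental a and 183 and 188 in parental b and c. ITGB6 had 3989.5 and 3799 normalised reads in DTC, against 3474, 1993 and 1794 in parental a, b and c. In both genes the groups did not overlap, but parental a lay close under DTC, at a DTC ratio of 1.28 for ITGB8 and 1.12 for ITGB6, against 4.89 and 2.06 with parental b and c. ITGB5 overlapped, with 3181 and 3053 normalised reads in DTC against 3263, 2284 and 2367 in parental a, b and c. Its DTC ratio was 0.955 against parental a and 1.34 against parental b and c. In the authors' deposited table the log2 fold changes were 0.86 ± 0.39 for ITGB8, 0.57 ± 0.31 for ITGB6 and 0.21 ± 0.26 for ITGB5, with adjusted p of 0.45, 0.48 and 0.68 (DESeq2).

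Among subunits that bind laminin, ITGB4 had the largest difference. ITGB4 pairs with ITGA6 in hemidesmosomes, where it ties laminin to the keratin network. It had 7726 and 6979 normalised reads in DTC, against 5529 in parental a, 2371 in parental b and 2573 in parental c. The groups did not overlap, and parental a lay between DTC and the other parental libraries. The ratio of means was 2.11, with 1.33 against parental a and 2.97 against parental b and c. The authors' deposited table gave ITGB4 a log2 fold change of 0.84 ± 0.34 and an adjusted p of 0.39 (DESeq2). ITGA6 was the most abundant member, at a mean of 33351, and its log2 fold change was 0.52 ± 0.32 with an adjusted p of 0.51 in the authors' deposited table (DESeq2). Its reads per library were not resolved, so nothing is said of how its libraries lay.

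ITGA3, which pairs with ITGB1 as a laminin receptor of lung epithelium, had 20143 and 18326 normalised reads in DTC, against 18353, 10928 and 11279 in parental a, b and c. DTC b lay just under parental a, so the groups overlapped, and the DTC ratio was 1.05 against parental a and 1.73 against parental b and c. ITGB1, the beta subunit shared by most alpha subunits described here, had 15619 and 15886 normalised reads in DTC, against 15935, 11308 and 10274 in parental a, b and c. Parental a was the highest library of ITGB1, and the DTC ratio was 0.989 against it and 1.46 against parental b and c. The log2 fold changes in the authors' deposited table were 0.43 ± 0.29 for ITGA3 and 0.29 ± 0.27 for ITGB1, with adjusted p of 0.52 and 0.60 (DESeq2).

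The collagen-binding subunits showed a wide split of the parental libraries. ITGA2 had 10887 and 10611 normalised reads in DTC, against 9297 in parental a, 1963 in parental b and 1990.3 in parental c. The groups did not overlap, yet the DTC ratio was 1.16 against parental a and 5.44 against parental b and c. ITGA1 had 347 and 295 normalised reads in DTC, against 344 in parental a and 92.4 and 92.6 in parental b and c, and overlapped. The authors' deposited table gave log2 fold changes of 0.78 ± 0.40 for ITGA2 and 0.55 ± 0.40 for ITGA1, with adjusted p of 0.47 and 0.53 (DESeq2). The authors' deposited table gave positive log2 fold changes to all 11 tested integrin subunits outside the leukocyte ones; their median was 0.55. By DESeq2 0 of these 11 were called, while 3 had an unadjusted p under 0.05. Over all tested genes the median was -0.02 and 48.4% were positive, and over protein-coding genes with a transcript of 4 kb or longer the median was 0.24 and 73.5% were positive.

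**Figure D2:**
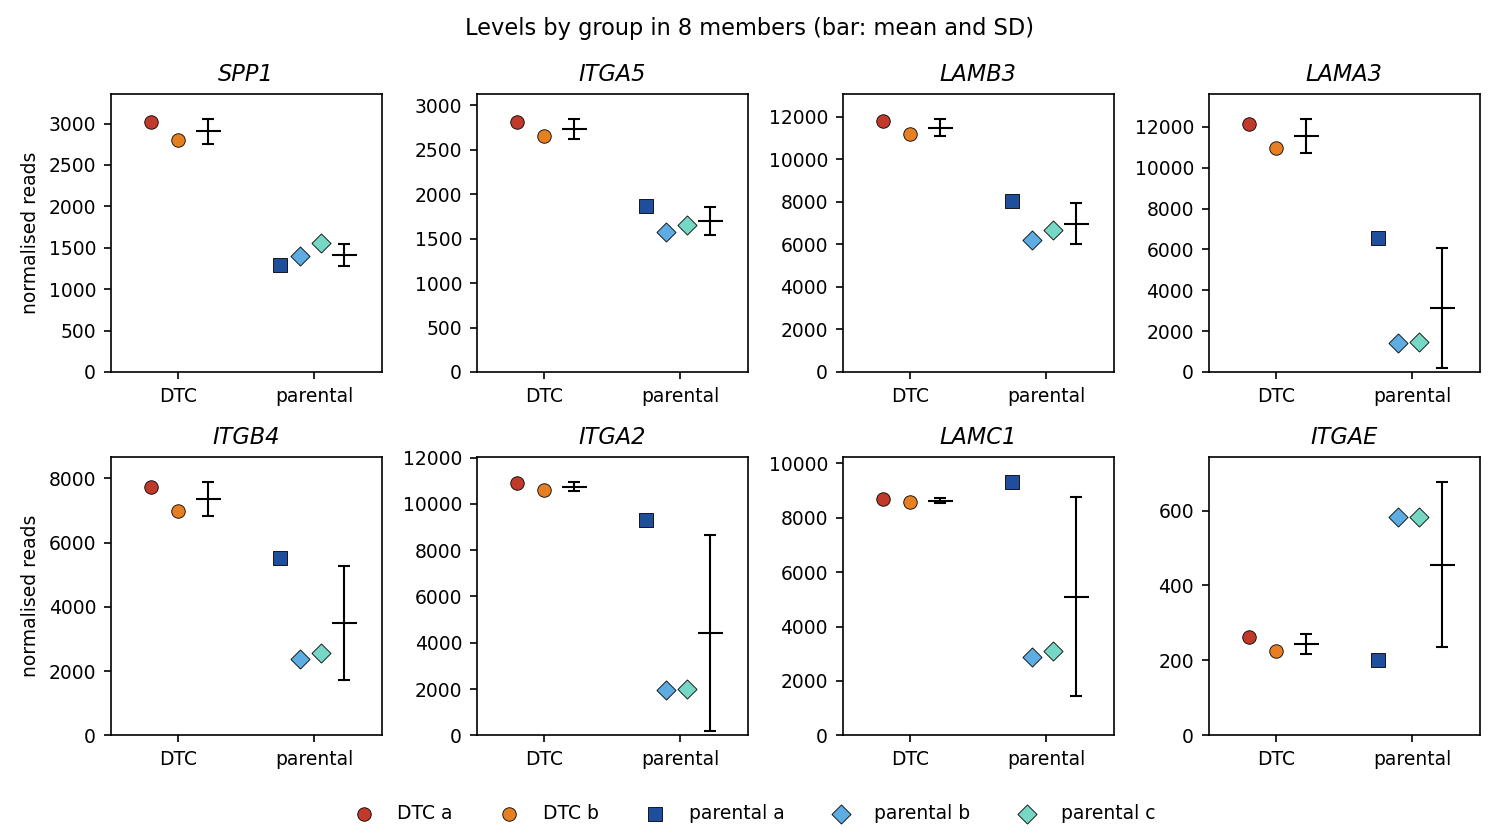
Normalised reads in each library for 8 members, with DTC on the left and parental on the right of each panel, symbols by library, and the bar showing mean and SD of each group (2 and 3 libraries). The parental libraries lie together in SPP1, ITGA5 and LAMB3, and split in LAMA3, ITGB4, ITGA2, LAMC1 and ITGAE.

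All 8 laminin chains with an adjusted p were positive in log2 fold change by the authors' deposited table, at a median of 0.57 and a range of 0.39 to 1.15. By DESeq2 0 of them were called, and 2, LAMA3 and LAMB3, had an unadjusted p under 0.05. LAMA3 and LAMB3 encode chains of an epithelial laminin that anchors hemidesmosomes and binds the ITGA6 and ITGA3 receptors. LAMA3 had 12148 and 10948 normalised reads in DTC, against 6545 in parental a, 1423 in parental b and 1469 in parental c. The groups did not overlap, and the lowest DTC library stood 1.67 times above parental a, a gap reached by 2 of the 589 drawn genes. The ratio was 1.76 against parental a and 7.99 against parental b and c, so its size depended on the parental libraries used. In the authors' deposited table LAMA3 had the largest log2 fold change of the members, 1.15 ± 0.40 (95% interval 0.36 to 1.93), with an adjusted p of 0.23 (DESeq2).

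LAMB3 had 11789 and 11202 normalised reads in DTC, against 8048, 6193 and 6668 in parental a, b and c. Like SPP1 and ITGA5 it had parental libraries that lay together, and its DTC ratio was 1.43 against parental a and 1.79 against parental b and c. The authors' deposited table gave it a log2 fold change of 0.66 ± 0.23 and an adjusted p of 0.23 (DESeq2).

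LAMA3 and LAMB3 did not keep 1 proportion to each other over the libraries. Reads of LAMA3 per read of LAMB3 were 1.03 and 0.977 in DTC, against 0.813 in parental a, 0.230 in parental b and 0.220 in parental c. The LAMA3 share was thus highest in DTC and lowest in parental b and c. LAMA3 has the longer transcript of the pair, 10661 nucleotides against 4305 for LAMB3, although shorter LAMA3 transcripts are annotated.

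The other laminin chains belong to trimers found in most basement membranes and in vessel walls. LAMA4 had 5258 and 5009 normalised reads in DTC, against 4718, 1839 and 2002 in parental a, b and c, and its groups did not overlap. Its DTC ratio was 1.09 against parental a and 2.67 against parental b and c. LAMA5, the alpha chain of alveolar and bronchial basement membrane, had 7254 and 6072 normalised reads in DTC, against 6814, 1604 and 1655 in parental a, b and c. LAMC1, the gamma chain of most trimers, had 8688 and 8563 normalised reads in DTC, against 9310.3, 2869.8 and 3088 in parental a, b and c. Parental a lay among or above the DTC libraries in LAMA5 and LAMC1. The same held for the beta chains. LAMB1 had 3973 and 3766 normalised reads in DTC, against 4566, 1446 and 1560.4 in parental a, b and c. LAMB2 had 1903 and 1615 normalised reads in DTC, against 2129.7, 666 and 778 in parental a, b and c. For LAMB1, LAMB2 and LAMC1 the DTC ratio was 0.848, 0.826 and 0.926 against parental a and 2.57, 2.44 and 2.90 against parental b and c, so the direction turned with the parental library. In the authors' deposited table the log2 fold changes were 0.64 ± 0.35 for LAMA4, 0.62 ± 0.40 for LAMA5, 0.53 ± 0.38 for LAMC1, 0.43 ± 0.38 for LAMB1 and 0.39 ± 0.38 for LAMB2, with adjusted p of 0.49, 0.51, 0.53, 0.59 and 0.62 (DESeq2).

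**Figure D3:**
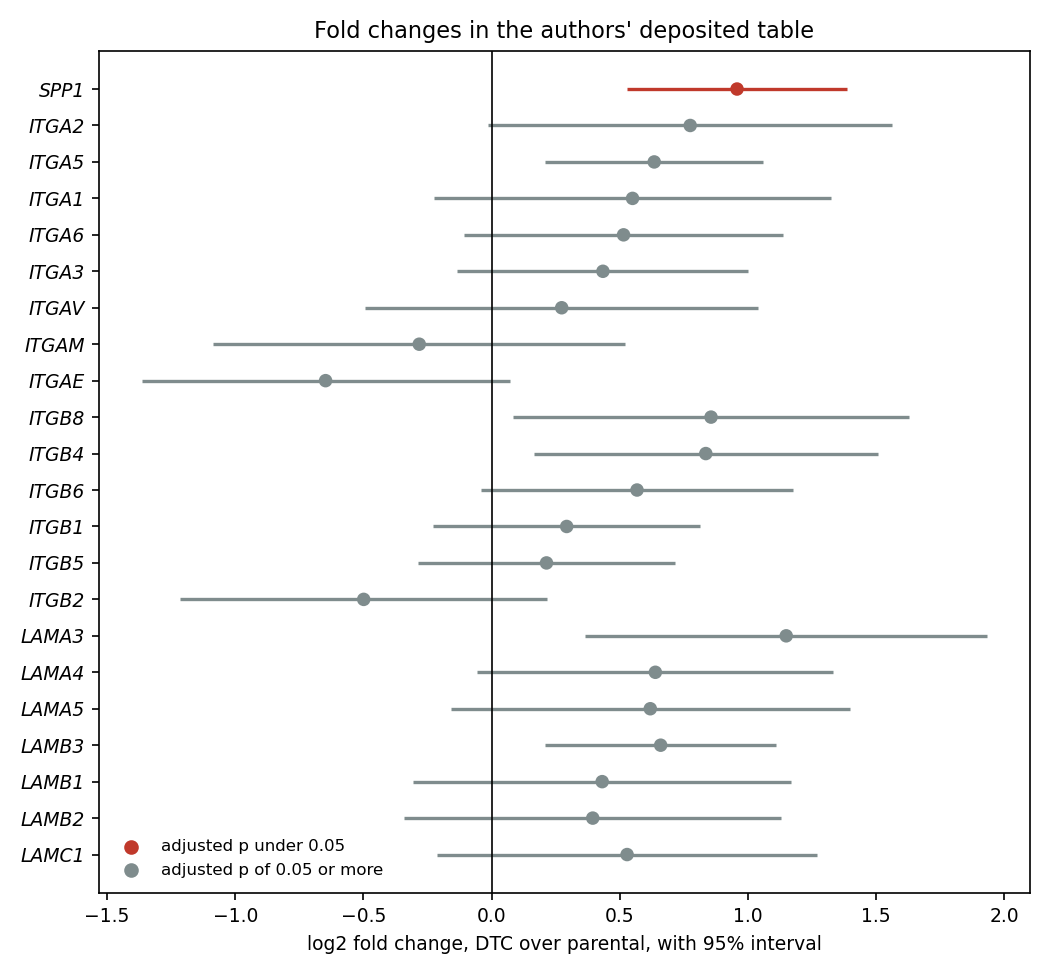
Log2 fold changes of 22 members with an adjusted p, DTC over parental, with 95% intervals, from the authors' deposited table. SPP1 is the 1 member with an adjusted p under 0.05, and the 3 values below 0 are ITGAE, ITGAM and ITGB2.

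The 3 leukocyte integrin subunits with an adjusted p were the members with negative values. ITGAE pairs with ITGB7 on T cells that reside in epithelia, and binds E-cadherin. It had 263 and 226 normalised reads in DTC, against 201 in parental a and 583 in each of parental b and c. DTC lay above parental a and below the others, with a ratio of 1.21 against parental a and 0.419 against parental b and c. ITGB2, the beta subunit of leukocyte integrins, had 57.3 and 41.8 normalised reads in DTC, against 119, 64.9 and 56.2 in parental a, b and c. ITGAM, its myeloid alpha partner, had 26.5 and 13.9 normalised reads in DTC, against 57.1, 18.7 and 13.5 in parental a, b and c. Parental a was the highest library of both genes, and the groups overlapped in all 3. The DTC ratio was 0.416 for ITGB2 and 0.354 for ITGAM against parental a, and 0.819 and 1.25 against parental b and c, so ITGAM turned with the parental library. The authors' deposited table gave log2 fold changes of -0.65 ± 0.37 for ITGAE, -0.50 ± 0.37 for ITGB2 and -0.28 ± 0.41 for ITGAM, with adjusted p of 0.49, 0.54 and 0.74 (DESeq2).

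The remaining 11 members had a mean level under 10 and no adjusted p in the authors' deposited table. These were ITGAX at 7.46, ITGAD at 6.70, ITGA10 at 5.93, ITGA9 at 5.53, ITGB3 at 5.06, ITGA11 at 3.56, LAMA2 at 3.55, ITGB7 at 2.85, ITGA2B at 2.54, ITGA7 at 1.27 and ITGA8 at 0.353. ITGAX and ITGAD are leukocyte subunits, ITGB3 and ITGA2B form the platelet fibrinogen receptor, and LAMA2 is the laminin alpha chain of muscle. They are given by level alone.

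Transcript length went with the split of the parental libraries in these genes. Over the 22 members Spearman's correlation of transcript length with the log2 ratio of DTC over parental b and c was 0.89, and with DTC over parental a it was -0.0085. Over 584 drawn genes with a length the values were 0.46 and -0.20. The points share the same libraries, so these are descriptions across genes. The longest members, LAMA5 at 11426 nucleotides, ITGA1 at 10757 and LAMA3 at 10661, had DTC ratios over parental b and c of 4.09, 3.47 and 7.99, and over parental a of 0.978, 0.934 and 1.76. SPP1, the shortest tested member at 1581 nucleotides, had ratios of 1.97 over parental b and c and 2.25 over parental a. The part of length in the members' differences was not tested, beyond the removal of a length and GC trend from the deposited values. That removal left medians of 0.26 over integrin subunits and 0.27 over laminin chains, against 0.47 and 0.57 without it, and left SPP1 called.

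**Figure D4:**
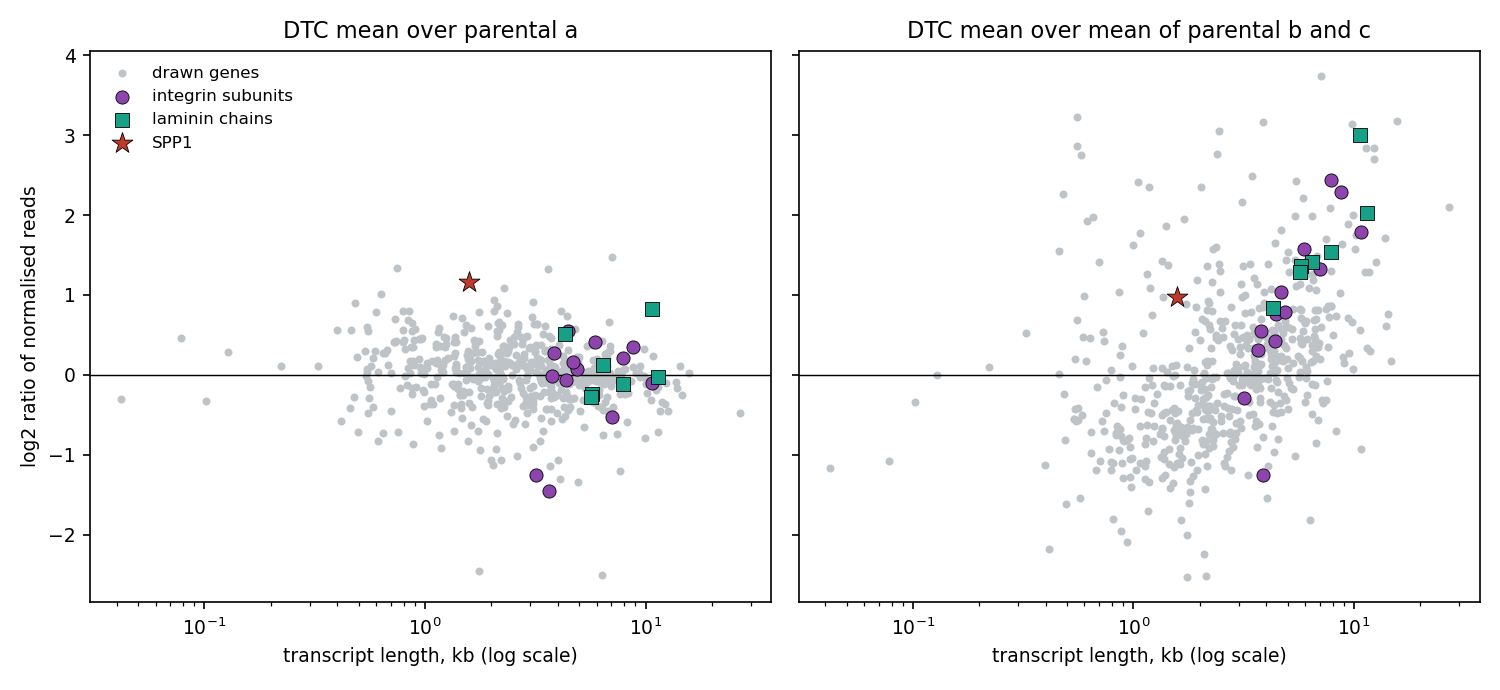
Log2 ratio of normalised reads against transcript length (log scale) for 21 members and 584 drawn genes, with DTC over parental a on the left and DTC over the mean of parental b and c on the right. The members follow a slope on the right and not on the left, and SPP1 lies near 1 in both panels.

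Levels were also compared per kb of transcript. In DTC ITGB1 stood at 4163, ITGA3 at 3935 and LAMB3 at 2670.2 normalised reads per kb, and the same genes stood at 3305, 2766 and 1619 in parental cells. SPP1 had 1838 normalised reads per kb in DTC and 895 in parental cells. Over all libraries the mean level of ITGA6 in the authors' deposited table was 5936 per kb, above that of ITGB1 at 3648. Among alpha subunits the order per kb of the mean level began with ITGA6, ITGA3, ITGA2, ITGA5 and ITGAV, so the laminin-binding ITGA6 and ITGA3 stood highest. ITGA7, which also binds laminin, had a mean level of only 1.27. In parental b and c ITGA5 stood above ITGA2, at 355 and 372 normalised reads per kb against 249 and 253. ITGB4 stood at 1242 normalised reads per kb in DTC and 589.8 in parental cells, and the ITGAV partners ITGB6 and ITGB5 at 833 and 713 in DTC, against 518 and 603 in parental cells. ITGB6 stood above ITGB5 per kb in each DTC library and below it in parental b and c, and the 2 were near equal in parental a, at 743 against 746. Before division by length ITGB6 stood above ITGB5 in parental a, at 3474 against 3263 normalised reads. Of the leukocyte subunits ITGB2 was low, at 15.6 normalised reads per kb in DTC and 25.2 in parental cells, as was ITGAM at 5.53 and 8.14. ITGAE stood higher, at 63.3 in DTC and 118 in parental cells, above ITGA1 at 29.9 and 16.4.

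**Figure D5:**
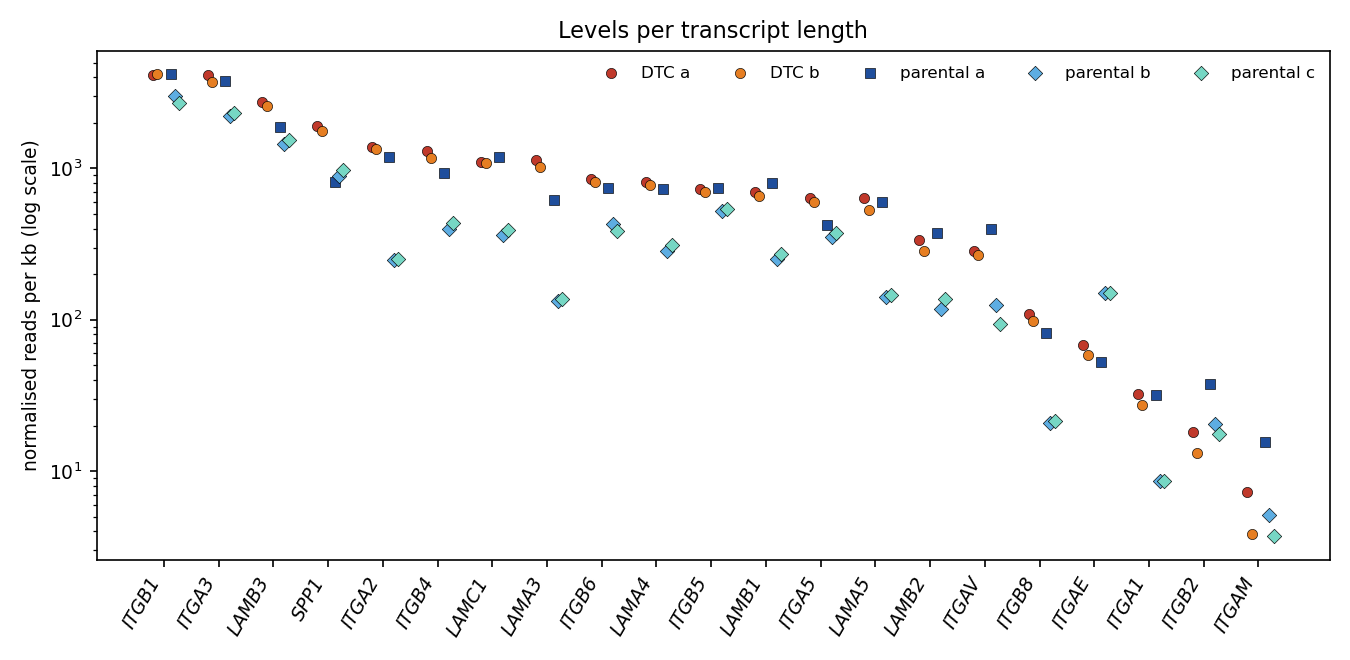
Normalised reads per kb of transcript (log scale) in each library for 21 members with reads, ordered by the DTC mean. Of these, ITGB1 and ITGA3 are highest and ITGB2 and ITGAM lowest, and the order shifts between libraries where parental b and c lie apart from the rest.

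Genes that work with integrins and laminins were described from fixed lists. Of 36 tested integrin adaptor and focal adhesion genes, 0 passed by DESeq2, per the authors' deposited table, and 4 had an unadjusted p under 0.05, as did 10.8% of all tested genes in either direction. Their median log2 fold change was 0.15, with 23 positive and 13 negative values. Of the 31 with reads, both DTC libraries lay above every parental library in 12 and below in 3, beside 18.0% and 15.4% of the drawn genes. For drawn genes with a transcript of 4 kb or longer the shares were 25.3% and 9.89%. The part of transcript length in this list was not tested. TGFB1I1, a paxillin-family adaptor, had 14.1 and 10.1 normalised reads in DTC against 34.4, 57.0 and 52.0 in parental a, b and c, and BCAR1, a scaffold of integrin signalling, had 1385 and 1277 in DTC against 854, 943 and 984. Both genes separated the groups in all 5 libraries, in opposite directions. The authors' deposited table gave log2 fold changes of -1.32 ± 0.38 for TGFB1I1, 0.48 ± 0.22 for BCAR1, 0.41 ± 0.20 for the actin crosslinker ACTN4 and 0.75 ± 0.37 for filamin A (FLNA), with adjusted p of 0.074, 0.44, 0.46 and 0.46 (DESeq2).

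Of 10 tested genes of hemidesmosomes and of laminin receptors outside the integrins, SGCE fell and 0 were called higher, where 0.289% of all tested genes were called lower. SGCE encodes a sarcoglycan of the dystroglycan complex, and had 204 and 184 normalised reads in DTC, against 348, 526 and 524 in parental a, b and c. Its log2 fold change in the authors' deposited table was -1.09 ± 0.28 with an adjusted p of 0.030 (DESeq2). The call of SGCE was lost with no filter on mean level, at an adjusted p of 0.054, with the length and GC trend removed, at 0.091, and with the scaled Wald scores, at 0.97. The list's median was -0.08, and the hemidesmosome linker PLEC was at 0.91 ± 0.41, the ribosomal protein and laminin receptor gene RPSA at -0.68 ± 0.33 and the laminin receptor BCAM at -0.43 ± 0.23 by the authors' deposited table. None of these 3 was called. Reads of RPSA can be shared with its processed pseudogenes. Among basement membrane partners of laminin 10 of 11 tested genes had positive values, and their median was 0.44, while 0 passed by DESeq2 or at an unadjusted p under 0.05 (the authors' deposited table). Of all tested genes 48.4% were positive. Protein-coding genes with a transcript of 4 kb or longer were positive in 73.5%, at a median of 0.24. COL4A6 was at 0.55 ± 0.33, agrin (AGRN) at 0.49 ± 0.36, perlecan (HSPG2) at 0.48 ± 0.36 and COL4A1 at 0.43 ± 0.35 in the authors' deposited table.

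Tetraspanins and other membrane partners of integrins were mostly negative, in 9 of 10 tested genes against 51.6% of all tested genes, and the authors' deposited table put their median at -0.52. By DESeq2 0 passed, and 4 of the 10, all negative, had an unadjusted p under 0.05, where 7.10% of all tested genes had one with a negative value. Over the 201 drawn genes with a transcript under 2 kb, the median log2 ratio of DTC over parental means from reads was -0.37. That ratio is not moderated towards 0, unlike the deposited values of the list, so the 2 medians are not on the same scale. The part of transcript length in this list was not tested. CD47, a partner of ITGAV pairs, had 1618 and 1602 normalised reads in DTC, against 2905, 2720.4 and 2514 in parental a, b and c, and separated the groups in all libraries. CD63, a tetraspanin, had 2023 and 1999 normalised reads in DTC, against 2067 in parental a and 5167 and 5242 in parental b and c. CD9, another tetraspanin, had 3108 and 2846 normalised reads in DTC, against 3636, 4735 and 4466 in parental a, b and c. The authors' deposited table gave -0.70 ± 0.21 for CD47, -0.66 ± 0.22 for caveolin (CAV1), -0.80 ± 0.35 for CD63 and -0.48 ± 0.23 for CD9, with adjusted p of 0.097, 0.20, 0.42 and 0.46 (DESeq2).

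Other matrix ligands of integrins had values in both directions. Of 20 tested genes 11 were positive and 9 negative, their median was 0.04, and 0 passed by DESeq2 or at an unadjusted p under 0.05 (the authors' deposited table). Of the 17 with reads both DTC libraries lay above every parental library in 0 and below in 4, beside 18.0% and 15.4% of the drawn genes. For drawn genes with a transcript of 4 kb or longer the shares were 25.3% and 9.89%. The values were 0.67 ± 0.35 for COL6A1, -0.39 ± 0.24 for TGFB1, -0.40 ± 0.25 for LTBP4, which holds latent TGF-beta in the matrix, and 0.52 ± 0.36 for COL12A1 in the authors' deposited table. CD44, the other receptor of osteopontin, stood at a mean of 31271, and had a log2 fold change of 0.33 ± 0.28 and an adjusted p of 0.58 in the authors' deposited table (DESeq2). The other genes of the osteopontin family were not analysed here. Among 6 tested counter-receptors on cells, 0 passed by DESeq2 or at an unadjusted p under 0.05. The authors' deposited table had F11R at -0.42 ± 0.25, CDH1 at 0.40 ± 0.27, ICAM5 at 0.26 ± 0.41 and JAM3 at -0.19 ± 0.35.

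Epithelial markers were the highest of the marker lists. In the authors' deposited table the 6 epithelial markers had mean levels from 3778 for CDH1 to 35758 for KRT8. By DESeq2 0 of the 6 were called and 1, KRT7, had an unadjusted p under 0.05. The authors' deposited table gave 5 of the 6 negative log2 fold changes; the median was -0.22, with -0.60 ± 0.29 for KRT7, -0.56 ± 0.29 for KRT19 and -0.33 ± 0.29 for KRT18. Of 8 haematopoietic markers 5 had a row, and their levels ran from 0.709 for SPI1 to 7.15 for CSF1R. Their summed level was 17.6 and 20.3 normalised reads in DTC, against 15.1, 12.8 and 11.5 in parental a, b and c. Of the leukocyte integrins given above, ITGB2 and ITGAM were low and ITGAE stood higher. Of 5 platelet markers 2 had a row in the authors' deposited table, GP1BA at 21.2 and ITGA2B at 2.54. Of 6 fibroblast markers 2 had a row there, COL1A1 at 162 and PDGFRB at 0.353. Of 6 endothelial markers 4 had a row. VWF and CLDN5 were at 6.61 and 2.89, while CDH5 was at 253 and PECAM1 at 1616 in the authors' deposited table. PECAM1 had 2192 and 1926 normalised reads in DTC, against 1629, 1151 and 1181 in parental a, b and c. The part of these markers in the members' differences was not tested.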

How the data were processed

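RNA-seq was made from 2 libraries of gefitinib-tolerant PC9 cells (DTC) and 3 of parental PC9 cells. Per the submitters' processing notes the tools were FastQC, STAR and DESeq2, with the hg38 build. For their versions, and for the counting tool, strand setting and gene annotation, the sources used here give nothing. The authors deposited 1 table of this comparison, with a mean signal per gene (reads divided by size factors, over all libraries), a log2 fold change and its SE, a Wald score, a p-value and an adjusted p-value. A positive log2 fold change means higher in DTC. The deposited log2 fold changes are moderated towards 0, so they can be smaller than ratios of group means.

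This table holds no count per library, so the planned edgeR test was not run. The main test is the authors' adjusted p-value under 0.05 over 15223 genes (DESeq2). Genes without one, which include 11 members under a mean level of 10, are given by level alone. Size factors and whole reads were recovered as the set of reads that returns the deposited mean, log2 fold change and SE. For genes under a mean level of 10 the deposited mean alone was matched. The 33 members resolved had exactly 1 such set (ITGA6 allows too many). Among members matched on the log2 fold change its largest difference was 1.8e-09. On simulated data every set returned was the simulated one. Which libraries are DTC follows from the deposited contrast, and which replicate number each has is unknown. With 3 against 2 libraries an exact one-sided permutation test cannot give a p under 0.1, so no test was made on reads. Background reads came from 600 drawn genes with an adjusted p and a mean level under 2500, which holds for 91.4% of tested genes, and 589 were resolved.

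Transcript lengths are those of the APPRIS principal transcript of each gene in GENCODE 29, or of the longest basic transcript where none is marked. Members, lists, roles and tests were chosen with earlier results of these data known. Members with a mean level of 10 or more are named with values, except 1 that is counted but not reported here, and of each list up to 4 genes of lowest adjusted p among those at a mean level of 10 or more. Python 3.11.15, NumPy 2.4.6, pandas 2.3.3, SciPy 1.17.1 and Matplotlib 3.10.9 were used. Alternatives were other filters and thresholds, centring, scaling of the Wald score, removal of a length and GC trend, and leaving out libraries. The alternatives on parental libraries were chosen after seeing the data.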

Additional observations from a re-analysis of the deposited data

How the results depend on the processing

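SPP1 stayed the 1 member called with no filter on mean level, at a mean level of 50 or more, at an adjusted p under 0.01 and with a length and GC trend removed. With the authors' Wald score centred and scaled by its robust SD, 0 members were called and SPP1 had an adjusted p of 0.97; this scaling widens the null spread for all genes. The median log2 fold change was 0.49 over integrin subunits and 0.59 over laminin chains when centred on all genes, and 0.26 and 0.27 with the trend removed. From reads, the median log2 ratio of DTC over parental means in 22 members was 0.69. Leaving out 1 library at a time gave 0.51 to 1.16, the highest without parental a. It was 0.51 with parental b and c averaged as 1 library and 0.095 against parental a alone. The count of members with both DTC libraries above every parental library was 10, against 19 with parental b and c alone and 11 with parental a alone. Against parental a alone the log2 ratio turned for ITGB1 (-0.017), LAMA5 (-0.032), ITGB5 (-0.066) and ITGAE (0.28), and for ITGA1, ITGAV, LAMB1, LAMB2 and LAMC1 as given above; the cause was not tested. No paired analysis was possible because the recovered libraries cannot be matched to the replicate numbers of the labels. Reads limit the members under a mean level of 10.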
